A study of Mus musculus with 6 samples.

Results

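The mitochondrial carriers and uncoupling proteins were taken as every gene in the count files whose symbol is Slc25a followed by a number, together with *Ucp1*, *Ucp2* and *Ucp3*, which gave 50 genes of 55401. The 50 genes were 47 *Slc25a* genes and the 3 uncoupling protein genes. Their levels were read from bulk RNA-seq of subcutaneous white adipose tissue (scWAT) of 8 weeks old male mice kept at room temperature on chow diet, with 3 libraries per group and 6 in all. In the group labelled YT-AKO, floxed *Yap* and *Taz* alleles (Yap fl/fl and Taz fl/fl) were combined with AdipoqCre, a Cre recombinase under the *Adipoq* promoter that is active in mature adipocytes, so the other cells of the depot keep both genes. The control mice have the genotype label WT in the sample records and are named YT-FF in the study, for floxed mice without Cre. The study's methods give C57BL/6 and mixed C57BL/6-129 stocks as the sources of the alleles. Libraries held between 17740987 and 21838493 counted fragments. CPM values are counts relative to library size, scaled by the trimmed mean of M values (TMM), and TPM values are the counts divided by summed exon length and scaled to the same total in each library, without TMM. A gene is called at a Benjamini-Hochberg adjusted p under 0.05 in the edgeR quasi-likelihood test, adjusted over 16807 genes, and every log2 fold change is YT-AKO minus YT-FF.

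Carriers of the SLC25 family sit in the inner mitochondrial membrane, where each moves a metabolite, a nucleotide, a cofactor or an ion between the matrix and the intermembrane space. Uncoupling proteins belong to the same family by sequence, and UCP1 of brown and beige adipocytes lets protons re-enter the matrix without ATP synthesis, so that respiration gives heat. Fat cells also use carriers to export citrate for fatty acid synthesis and to bring acylcarnitines in for oxidation.

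The checks of the labels came first. *Yap1* fell in the libraries labelled YT-AKO (log2 fold change -0.98, SE 0.17, adjusted p = 0.0179 by edgeR), whereas *Wwtr1*, the gene of TAZ, was higher there (log2 fold change 0.89, SE 0.18, adjusted p = 0.022), against the label. Gene counts include exons outside a deleted part, so they test the deletion only in part. Adipocyte genes were abundant in every library, with *Adipoq* at 33351 counts or more. The library labelled YT-AKO 1 held 3345 CPM of the 10 skeletal muscle markers, against 122 to 496 CPM in the other 5 libraries. The summed 8 B cell markers stood at 1181 to 1406 CPM in the libraries labelled YT-FF and at 691 to 1026 CPM in those labelled YT-AKO. The summed 8 macrophage markers were at 484 to 543 CPM and at 748 to 885 CPM in the same order, but only 1 of the 8 was called, *C1qa*, at 87.6 to 102 CPM and 241 to 479 CPM. Without *C1qa*, a sum added after its values were seen, the other 7 gave 382 to 455 CPM and 407 to 509 CPM, and the groups overlapped. *Zic1* of classical brown fat, the basal keratin *Krt5* and the sympathetic enzyme gene *Th* had 0 counts in all 6 libraries. In bulk tissue, fewer cells of a type and less RNA per cell cannot be told apart. Over all tested genes the log2 fold change went with gene length, with a Spearman's rho of -0.38 across genes, and the library labelled YT-AKO 2 had the lowest TMM factor, 0.78, against 0.95 to 1.16 in the others.

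Promoter sequences of 4 members are shown because these genes carry the results that follow: *Ucp1* had the largest rise of the family, *Slc25a20* is the only member whose window held the ETS letters, and *Slc25a39* and *Slc25a40* are related genes that moved in opposite directions. They come from RefSeq on GRCm38.p6, each with 250 bases before and 50 bases after the annotated start, written 5′ to 3′ on the strand of the gene, and capitals mark the motif CCGGAAGT. The windows are chr8:83290098-83290397 on the plus strand for *Ucp1*, chr9:108661886-108662185 on the plus strand for *Slc25a20*, chr11:102407468-102407767 on the minus strand for *Slc25a39* and chr5:8422588-8422887 on the plus strand for *Slc25a40*.
Ucp1: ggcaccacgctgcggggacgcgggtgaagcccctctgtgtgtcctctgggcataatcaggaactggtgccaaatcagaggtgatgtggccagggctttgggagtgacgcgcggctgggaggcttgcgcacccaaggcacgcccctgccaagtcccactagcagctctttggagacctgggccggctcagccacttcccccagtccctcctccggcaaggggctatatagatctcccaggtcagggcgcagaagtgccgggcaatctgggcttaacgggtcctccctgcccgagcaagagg
Slc25a20: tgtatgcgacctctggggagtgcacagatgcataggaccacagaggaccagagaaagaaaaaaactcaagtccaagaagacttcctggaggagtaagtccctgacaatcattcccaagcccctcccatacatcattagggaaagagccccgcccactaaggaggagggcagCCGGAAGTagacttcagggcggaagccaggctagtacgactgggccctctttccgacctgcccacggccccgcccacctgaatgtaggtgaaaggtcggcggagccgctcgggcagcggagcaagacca
Slc25a39: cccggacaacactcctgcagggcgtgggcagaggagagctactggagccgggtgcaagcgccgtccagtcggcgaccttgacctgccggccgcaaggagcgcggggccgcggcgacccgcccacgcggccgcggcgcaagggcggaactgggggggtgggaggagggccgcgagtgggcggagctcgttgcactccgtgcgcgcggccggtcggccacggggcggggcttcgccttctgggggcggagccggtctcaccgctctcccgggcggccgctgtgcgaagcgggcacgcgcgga
Slc25a40: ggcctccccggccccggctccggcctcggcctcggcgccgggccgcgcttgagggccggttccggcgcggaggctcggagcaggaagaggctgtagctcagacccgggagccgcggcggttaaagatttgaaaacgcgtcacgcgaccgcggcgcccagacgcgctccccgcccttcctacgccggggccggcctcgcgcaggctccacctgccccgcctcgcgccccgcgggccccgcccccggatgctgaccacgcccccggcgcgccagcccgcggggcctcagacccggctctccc
Bases G and C made up 64.7% of the *Ucp1* window, 58% of that of *Slc25a20*, 77.3% of that of *Slc25a39* and 79% of that of *Slc25a40*. Of the 50 members, 39 had a promoter in the RefSeq table, with 49 promoters in all. The estrogen-related receptor letters TCAAGGTCA were in 0 of the 49 windows and in 0.423% of 32851 promoters, and TGACCTTTG, part of a PPAR and RXR element, was in 0 and in 0.478%. GCATGCGC of NRF1 was in 4.08% of the member windows and 2.71% of all, CCGGAAGT of ETS factors and GABPA in 2.04% and 3.89%, and TGACGTCA of CREB in 4.08% and 1.79%. Both strands were searched, TGACCTTTG and TCAAGGTCA overlap in their TGACCTT letters, and a match is a description of the letters in this window. The members with NRF1 letters were *Slc25a31* and *Slc25a54*, which were not tested for low counts, and those with CREB letters were *Slc25a25* and *Slc25a36*, which were tested and not called.

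Of the 50 members, 44 passed the filter on low counts and were tested. In the libraries labelled YT-AKO, 16 of the 44 were higher, beside 12.6% of all tested genes called higher. Another 2 were lower, *Slc25a37* and *Slc25a40*, beside 9.01% of all tested genes called lower. The remaining 26 were not called, and in all 32 members had a positive and 12 a negative log2 fold change. The median log2 fold change of the tested members was 0.43 and that of all tested genes was -0.02. With library totals alone, which lowers the median of all genes to -0.34, the members' median was 0.10, 24 members had a positive log2 fold change and 8 were called higher, beside 6.77% of all genes called higher and 16.8% lower with that scaling, the lost calls including *Slc25a1*, *Slc25a3*, *Slc25a17*, *Slc25a29*, *Slc25a30*, *Slc25a48* and *Slc25a51*. The members called lower with that scaling were *Slc25a37*, *Slc25a40* and *Slc25a53*. At the study's stricter criterion, an adjusted p under 0.01 with a log2 fold change beyond 1, only *Ucp1* was called by edgeR, where 0.0892% of all genes were higher and 0.0357% lower, and 0 members were lower. This count was 9 higher and 0 lower with DESeq2, where 7.07% of all genes were higher and 3.56% lower. By edgeR without YT-AKO 2 it was 8 higher, beside 3.57% of all genes, and without any other single library it was 0 higher. With the same threshold DESeq2 called 16 members higher and 3 lower, with 15.0% and 11.7% of its tested genes as the background, and these included all 18 members that edgeR called. By edgeR no member was called without the library labelled YT-FF 1 or without YT-FF 2, where over all genes 0 and 2 calls were left (the 2 are 0.0117% of genes called lower), while 16 and 18 members had an unadjusted p under 0.05 with higher values and 3 in each case with lower values. Over all 17183 genes tested without YT-FF 1, 2612 had such a p with higher and 2053 with lower values. Without YT-FF 2 these were 2510 and 1997 of 17140 genes. Without YT-FF 3 there were 10 members called higher and 0 lower, beside 4.03% and 3.02% of all genes, with *Slc25a1*, *Slc25a3*, *Slc25a17*, *Slc25a29*, *Slc25a30*, *Slc25a51* and both lower members lost. Without YT-AKO 3 there were 11 and 0, beside 10.2% and 5.12% of all genes, and the same members but *Slc25a1* were lost. Without YT-AKO 1 there were 15 and 1, beside 12.7% and 8.24%, and only *Slc25a40* was called lower.

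**Figure D1:**
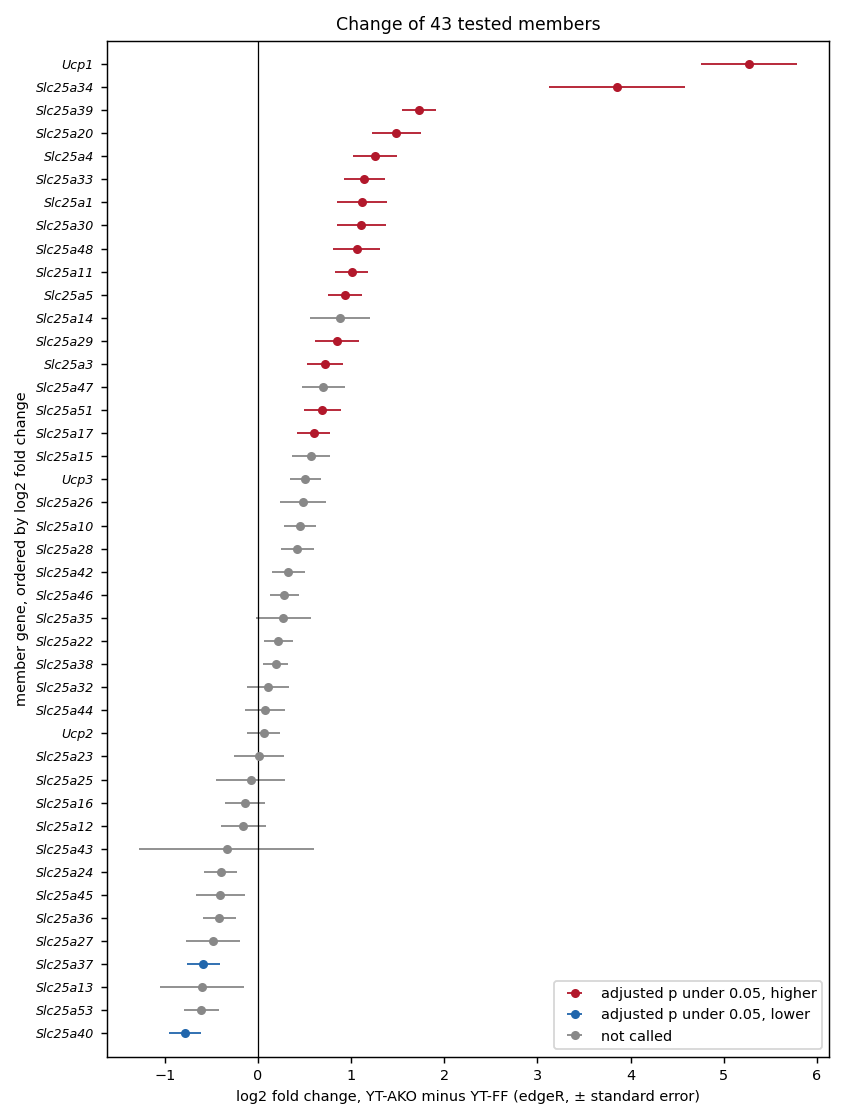
Log2 fold change (YT-AKO minus YT-FF, edgeR) of 43 tested members on the horizontal axis with the standard error as bars, ordered by size, with red points for 15 called higher, blue for the 2 called lower and grey for the 26 not called. *Ucp1* at 5.27 and *Slc25a34* at 3.86 stand apart from the rest, which lie between -0.79 and 1.73.

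All 16 members called higher had every library labelled YT-AKO above every library labelled YT-FF in CPM, and both members called lower had every one below. Over the tested members, 24 lay above without overlap, beside 25.7% of all tested genes, and 5 lay below, beside 25.8%. In TPM, where TMM is not applied, 5 members lay above, beside 7.52% of all tested genes, and 13 lay below, beside 54.5%. The 5 were *Ucp1*, *Slc25a4*, *Slc25a33*, *Slc25a34* and *Slc25a39*, and the members called lower lay below in TPM as well. Where single members are said below to overlap or to lie apart, this refers to CPM unless TPM, a share or a ratio is named. The library labelled YT-AKO 2 had the lowest TPM of all libraries for 30 of the 44 tested members. This count was not made over all tested genes, so it cannot be read as particular to the members. That library also had the lowest TMM factor, 0.78. Without that library 19 members were called higher and 3 lower, among them all 18 of the original calls, while the calls over all genes also rose, to 16.9% higher and 14.0% lower.

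Levels between members can be compared in TPM only. The 5 members with the highest mean TPM were *Slc25a1*, *Slc25a5*, *Slc25a4*, *Slc25a3* and *Slc25a10*, which together made up 55.6% to 59.7% of the family's summed TPM in the libraries labelled YT-FF and 55.4% to 64.5% in those labelled YT-AKO. The order at the top was not sharp, since *Slc25a10*, *Slc25a3* and *Slc25a4* had mean TPM of 300 ± 25.3, 295 ± 9.31 and 259 ± 50.7 (SD, n = 3) in YT-FF, so their order does not exceed the spread of *Slc25a4*. *Ucp1* took 0.382%, 0.221% and 0.492% of the family's TPM in the libraries labelled YT-FF and 3.90%, 10.9% and 7.41% in those labelled YT-AKO, and it moved from rank 31 to rank 4 among the 50 members. *Slc25a39* took 3.72%, 4.15% and 4.05% and then 5.71%, 7.74% and 6.93%, while the share of *Ucp2* went from 4.15% to 5.38% down to 2.37% to 2.73%. The groups did not overlap for these 3 genes. The share of *Slc25a34* also rose without overlap. The shares of *Ucp3*, *Slc25a10*, *Slc25a22*, *Slc25a44* and further members fell without overlap, so the fall of *Ucp2* was not particular to it. A share within a library does not depend on scaling between libraries, but it falls for every member when 1 member rises. A share can also depend on a length effect that differs between libraries. With the length correction *Ucp2*, whose share fell, had a log2 fold change of 0.36 by edgeR and was not called (adjusted p = 0.206).

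**Figure D2:**
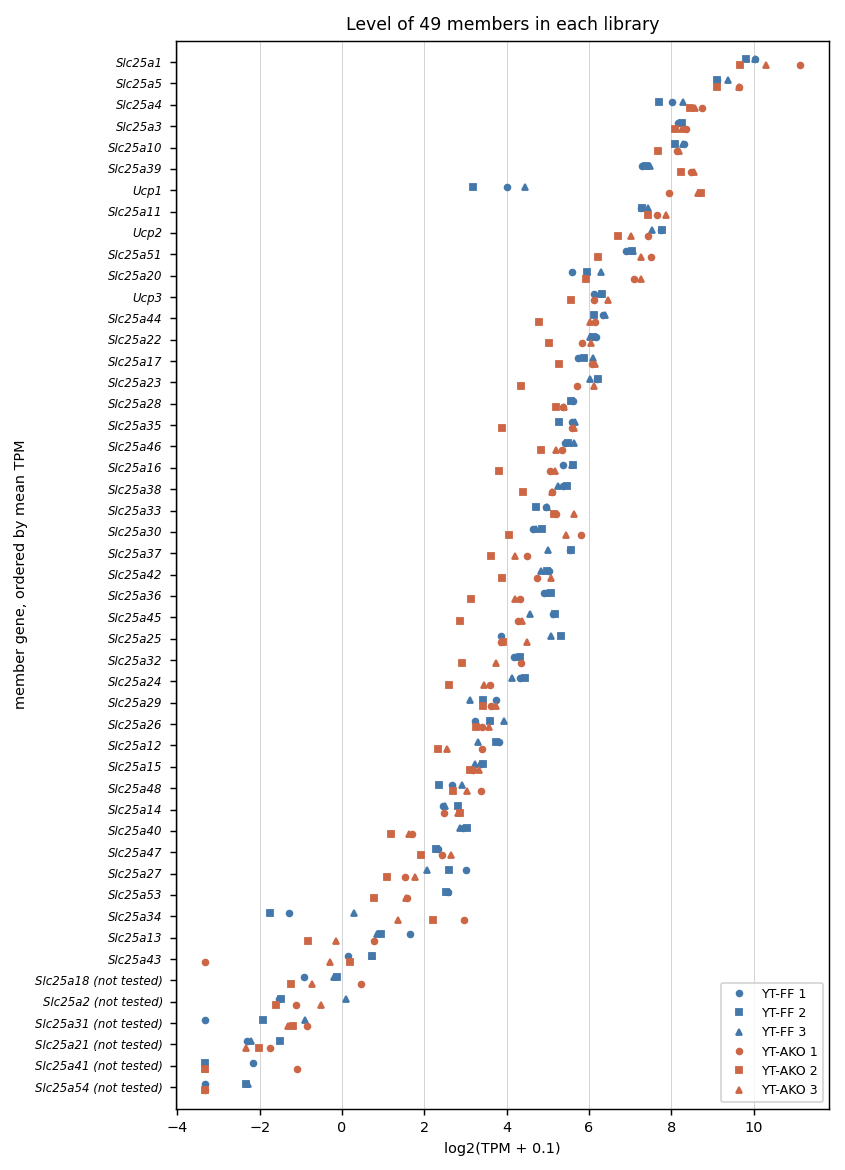
Level of 49 members in each library as log2(TPM + 0.1), ordered by mean TPM, with blue for libraries labelled YT-FF, orange for YT-AKO, and circles, squares and triangles for replicates 1, 2 and 3. The 6 members that were not tested lie at the bottom, and *Ucp1* has the widest gap between the groups among the abundant members.

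**Figure D3:**
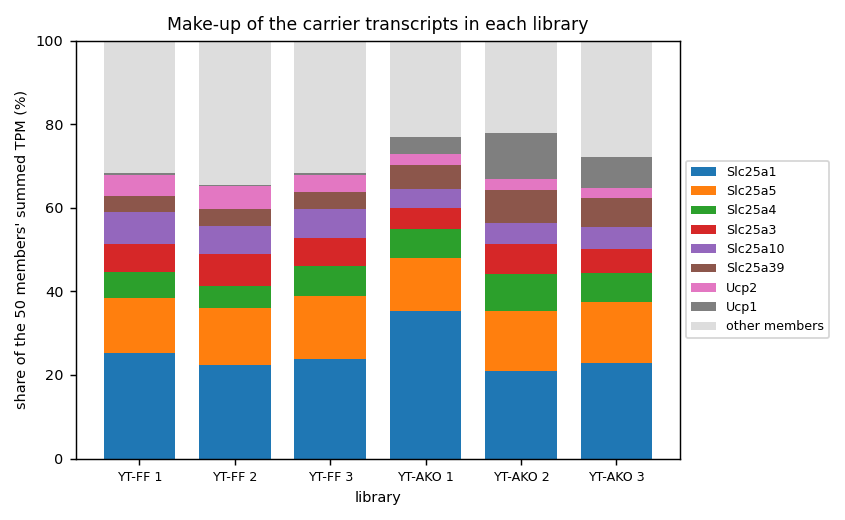
Share of the summed TPM of the 50 members taken by 8 members and by all others, in percent, for each of the 6 libraries. The dark grey *Ucp1* segment takes 0.221% to 0.492% in the libraries labelled YT-FF and 3.90% to 10.9% in those labelled YT-AKO.

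The summed TPM of all 50 members was 4203 ± 191 (SD, n = 3) in YT-FF and 5197 ± 1227 in YT-AKO, and an exact two-sided permutation test gave p = 0.4. Without *Ucp1* the sums were 4188 ± 185 and 4840 ± 1308 (exact permutation p = 0.5). In TMM-scaled CPM the sums were 3769 ± 252 and 6385 ± 311, a ratio of 1.69 with no overlap and p = 0.1 in the same exact permutation test, the lowest a design of 3 against 3 can reach. In TPM the library labelled YT-AKO 2, at 3866, lay below all 3 controls, while in CPM it lay above them.

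The uncoupling protein genes *Ucp1*, *Ucp2* and *Ucp3* went separate ways. *Ucp1*, whose protein carries the proton leak of brown and beige fat, stood at 6.77, 3.69 and 9.82 CPM in the libraries labelled YT-FF and at 144, 394 and 242 CPM in those labelled YT-AKO. Every library labelled YT-AKO lay far above every control, with the lowest in YT-AKO 1 and the highest in YT-AKO 2, and the rise of 38.5-fold was the largest in the family (log2 fold change 5.27, SE 0.51, adjusted p = 0.00782 by edgeR). *Ucp2*, which is broadly expressed and abundant in immune cells, stood at 389.5, 383 and 354 CPM in the libraries labelled YT-FF and at 429, 414 and 331 CPM in those labelled YT-AKO. Its groups overlapped and it was not called (log2 fold change 0.06, SE 0.18, adjusted p = 0.819). *Ucp3*, a form best known from skeletal muscle, stood at 56.1, 63.2 and 66.8 CPM in the libraries labelled YT-FF and at 78.3, 84.6 and 102 CPM in those labelled YT-AKO. All values labelled YT-AKO were above all controls, but the test was not passed (log2 fold change 0.51, SE 0.16, adjusted p = 0.0590), and the gene was called only without the library labelled YT-AKO 2 (log2 fold change 0.54, adjusted p = 0.0291). The library with the high muscle markers, YT-AKO 1, had the lowest *Ucp3* of the 3, and without it the log2 fold change was 0.60. The part of muscle RNA in the level of *Ucp3* was not tested. *Ucp3* and *Ucp2* lie next to each other on chromosome 7 with 6904 bases between them. Of the 12 beige and brown fat genes listed beside the family, 7 were higher and 0 lower, beside 12.6% and 9.01% of all tested genes. *Cidea* was 1 of the 7, at a log2 fold change of 3.17 (SE 0.27, adjusted p = 0.00728). The 5 genes not called included *Esrrg* at -1.51 (SE 0.57, adjusted p = 0.0870), *Ppara* at -0.36, *Prdm16* at -0.28 and *Ppargc1a* at 0.02. Without YT-AKO 2, 1 gene of the list was called lower.

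Of the 3 relatives of the uncoupling proteins first described in brain and kidney, 1 was called. *Slc25a30*, the kidney form, stood at 29.6, 33.6 and 32.8 CPM in the libraries labelled YT-FF and at 91.3, 43.2 and 72.4 CPM in those labelled YT-AKO. In CPM the groups did not overlap and the gene rose (log2 fold change 1.11, SE 0.26, adjusted p = 0.0290), with the least change in YT-AKO 2. In TPM YT-AKO 2, at 16.6, lay below the controls, at 24.9, 29.0 and 25.9, while YT-AKO 1 and 3, at 55.7 and 43.1, lay above them. *Slc25a14* had a log2 fold change of 0.88 (SE 0.32, adjusted p = 0.081) and *Slc25a27*, a form found mostly in brain, had -0.48 (SE 0.29, adjusted p = 0.244), and neither was called. Without the muscle-rich library YT-AKO 1 *Slc25a14* was called higher (log2 fold change 1.11, adjusted p = 0.0476), and with 1 library left out it ran from 0.54 to 1.11.

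The carriers that feed ATP synthesis were higher. *Slc25a4*, the ADP/ATP exchanger of heart and muscle, stood at 157, 124 and 202 CPM in the libraries labelled YT-FF and at 359.7, 470.2 and 328 CPM in those labelled YT-AKO. It did not overlap between the groups (log2 fold change 1.26, SE 0.24, adjusted p = 0.0200), and without the muscle-rich library YT-AKO 1 the log2 fold change was 1.32 (adjusted p = 0.0279). *Slc25a5*, the exchanger of most other tissues, stood at 235, 230.1 and 305 CPM in the libraries labelled YT-FF and at 472, 519 and 478 CPM in those labelled YT-AKO. It rose by less (log2 fold change 0.93, SE 0.18, adjusted p = 0.0205), and 33.8% of its 50-base words also occur in 9 other genes, 21.1% in *Gm5560* alone, and fragments that map to several places were not counted. With a correction for gene length *Slc25a5* had an adjusted p of 0.0535. *Slc25a3*, which brings in the phosphate for ATP synthesis, stood at 412, 427 and 454 CPM in the libraries labelled YT-FF and at 646, 852 and 628 CPM in those labelled YT-AKO. It rose too (log2 fold change 0.72, SE 0.19, adjusted p = 0.0372). The 3 genes together had 1144 ± 113 TPM in YT-FF and 1402 ± 201 TPM in YT-AKO (SD, n = 3, exact permutation p = 0.2). In TMM-scaled CPM they had 849 ± 97.2 and 1585 ± 223, a ratio of 1.87 against 1.22 in TPM, without overlap (exact permutation p = 0.1, the lowest possible). The ratio of *Slc25a4* to *Slc25a5* was 0.468, 0.378 and 0.464 against 0.534, 0.634 and 0.480. *Slc25a31*, the testis exchanger, had 0 to 7 counts and was not tested.

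The ATP-Mg/phosphate carriers, which set the adenine nucleotide content of the matrix under calcium control, were not called. *Slc25a25* stood at 29.3, 79.4 and 73.3 CPM in the libraries labelled YT-FF and at 40.6, 67.1 and 64.3 CPM in those labelled YT-AKO. *Slc25a24* stood at 17.6, 18.7 and 16.4 CPM in the libraries labelled YT-FF and at 14.7, 11.7 and 13.5 CPM in those labelled YT-AKO. The first overlapped between the groups and had its lowest value in YT-FF 1 (log2 fold change -0.08, SE 0.37, adjusted p = 0.884), and the second was below the controls in all 3 libraries without passing the test (log2 fold change -0.40, SE 0.18, adjusted p = 0.128). *Slc25a23* had a log2 fold change of 0.01 (SE 0.27), and its neighbour *Slc25a41*, 2056 bases away on chromosome 17, had 0 to 3 counts and was not tested.

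Carriers of citrate and other di- and tricarboxylates included the most abundant member. *Slc25a1*, which exports citrate to the cytosol for fatty acid synthesis, stood at 592, 495 and 628 CPM in the libraries labelled YT-FF and at 1718, 996 and 991 CPM in those labelled YT-AKO. In CPM all 3 libraries labelled YT-AKO were above the controls, YT-AKO 1 most of all (log2 fold change 1.11, SE 0.27, adjusted p = 0.0296), and the length-corrected adjusted p was 0.0681. In TPM the groups overlapped, with YT-AKO 2 at 807 and the controls at 904 to 1053. *Slc25a11*, the oxoglutarate carrier of the malate-aspartate shuttle, stood at 84.8, 84.0 and 101 CPM in the libraries labelled YT-FF and at 153, 207 and 182 CPM in those labelled YT-AKO. Its groups did not overlap (log2 fold change 1.004, SE 0.18, adjusted p = 0.0185). *Slc25a10*, the dicarboxylate carrier, stood at 286, 237 and 296 CPM in the libraries labelled YT-FF and at 351, 399 and 368 CPM in those labelled YT-AKO. The values labelled YT-AKO were higher in each library, but the gene was not called (log2 fold change 0.45, SE 0.17, adjusted p = 0.0886). *Slc25a21*, the oxoadipate carrier, had 3 to 7 counts and was not tested.

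*Slc25a34* and *Slc25a35*, relatives of these carriers with no substrate named here, behaved unlike each other. *Slc25a34* had 5, 3 and 16 counts in the libraries labelled YT-FF and 127, 117 and 41 in those labelled YT-AKO, which is 0.213, 0.132 and 0.823 CPM against 7.37, 6.89 and 2.42 CPM. This was the second largest rise of the family from a very low level, without overlap and with the least in YT-AKO 3 (log2 fold change 3.86, SE 0.73, adjusted p = 0.0201). Without YT-FF 3, the control with the most counts, its log2 fold change was 4.96 (adjusted p = 0.0383). *Slc25a35* stood at 45.6, 35.9 and 51.6 CPM in the libraries labelled YT-FF and at 62.7, 30.8 and 67.3 CPM in those labelled YT-AKO. It overlapped and was not called (log2 fold change 0.27, SE 0.30, adjusted p = 0.515), while without YT-AKO 2 it was called higher (log2 fold change 0.55, adjusted p = 0.0325), with a range of 0.08 to 0.55 when 1 library was left out. Of its exon bases, 31.3% are shared with *Rangrf*, where fragments count for neither gene.

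None of the aspartate/glutamate and glutamate carriers was called. *Slc25a12*, the calcium-activated aspartate/glutamate carrier of muscle and brain, stood at 26.4, 24.7 and 19.8 CPM in the libraries labelled YT-FF and at 27.5, 20.8 and 15.4 CPM in those labelled YT-AKO. Its groups overlapped (log2 fold change -0.16, SE 0.24, adjusted p = 0.646), as did those of *Slc25a13*, the liver form, which stood at 3.02, 1.76 and 1.80 CPM in the libraries labelled YT-FF and at 2.21, 1.001 and 1.12 CPM in those labelled YT-AKO. The log2 fold change of *Slc25a13* was -0.60 with an SE of 0.45 on 17 to 71 counts. *Slc25a22*, a glutamate carrier, had a log2 fold change of 0.22 (adjusted p = 0.329), and its relative *Slc25a18* had 5 to 15 counts and was not tested.

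Among the carriers of carnitine, ornithine and other amino acids, 3 of 8 tested members were higher and 0 were lower. *Slc25a20*, which exchanges acylcarnitines for carnitine in fatty acid oxidation and lies at chr9:108662088-108684641, stood at 60.3, 76.2 and 104 CPM in the libraries labelled YT-FF and at 238, 166 and 271 CPM in those labelled YT-AKO. In CPM the groups were apart, with the least rise in YT-AKO 2 (log2 fold change 1.49, SE 0.27, adjusted p = 0.0185). In TPM they overlapped, with YT-AKO 2 at 60.3 inside the range of the controls, 47.9 to 77.9, and YT-AKO 1 and 3 at 137 and 152. *Slc25a48* stood at 5.49, 4.26 and 6.99 CPM in the libraries labelled YT-FF and at 12.5, 12.2 and 10.1 CPM in those labelled YT-AKO. It rose from a low level without overlap (log2 fold change 1.06, SE 0.25, adjusted p = 0.0282). *Slc25a29*, a carrier of basic amino acids, also rose (log2 fold change 0.85, SE 0.24, adjusted p = 0.0417) and lost its call with the length correction (adjusted p = 0.0858). Its neighbour *Slc25a47*, 162 bases away on the other strand of chromosome 12, had a log2 fold change of 0.70 (adjusted p = 0.062) and was not called. The ornithine carrier *Slc25a15* had 0.57 (adjusted p = 0.0744), the glycine carrier *Slc25a38* 0.19, the branched-chain amino acid carrier *Slc25a44* 0.08 and *Slc25a45* -0.41, all as log2 fold changes that were not called. *Slc25a2*, the second ornithine carrier, had 2 to 7 counts and was not tested.

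The carriers of nucleotides, coenzymes and vitamins gave 4 of 9 members higher and 0 lower. *Slc25a33*, a pyrimidine nucleotide carrier, stood at 15.1, 12.4 and 16.5 CPM in the libraries labelled YT-FF and at 24.6, 38.2 and 34.4 CPM in those labelled YT-AKO. It rose without overlap (log2 fold change 1.14, SE 0.22, adjusted p = 0.0201), and 14.9% of its exon bases are shared with *Gm13068*. *Slc25a36*, the other pyrimidine nucleotide carrier, stood at 74.5, 82.1 and 83.1 CPM in the libraries labelled YT-FF and at 67.9, 47.8 and 64.3 CPM in those labelled YT-AKO. Its values were below the controls in all 3 libraries labelled YT-AKO, but it was not called (log2 fold change -0.41, SE 0.18, adjusted p = 0.117). With the length correction the log2 fold change of *Slc25a36* was -0.0083 (adjusted p = 0.970), and *Slc25a33* stayed called at 0.81 (adjusted p = 0.0370). Those that rose also included *Slc25a51*, the carrier of NAD (log2 fold change 0.69, SE 0.20, adjusted p = 0.0451), and *Slc25a17*, a carrier of cofactors in the peroxisome (log2 fold change 0.60, SE 0.17, adjusted p = 0.0466). Both calls were lost when any 1 library other than YT-AKO 2 was left out and with upper-quartile scaling (adjusted p = 0.0537 for *Slc25a51* and 0.0550 for *Slc25a17*), and that of *Slc25a17* also with the length correction and with no filter. *Slc25a26* of S-adenosylmethionine, *Slc25a42* of coenzyme A, *Slc25a32* of folate and *Slc25a16* had log2 fold changes of 0.48, 0.32, 0.11 and -0.14, none of them called, although without YT-AKO 2 *Slc25a42* was called higher (log2 fold change 0.44, adjusted p = 0.0420).

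Iron and glutathione carriers held both members that fell. *Slc25a39*, which imports glutathione, is at chr11:102402985-102407946 and stood at 111, 116 and 136 CPM in the libraries labelled YT-FF and at 354, 470.1 and 382 CPM in those labelled YT-AKO. The groups were far apart and the rise was 3.32-fold (log2 fold change 1.73, SE 0.19, adjusted p = 0.0123). *Slc25a40*, its closest relative and also a glutathione carrier, is at chr5:8422850-8454797 and stood at 16.3, 17.2 and 16.7 CPM in the libraries labelled YT-FF and at 9.40, 10.4 and 9.26 CPM in those labelled YT-AKO. The controls lay close together and all 3 libraries labelled YT-AKO were below them (log2 fold change -0.79, SE 0.17, adjusted p = 0.0245). The ratio of *Slc25a39* to *Slc25a40* in TPM was 20.7, 20.6 and 24.9 in the controls and 114, 137 and 125 in the libraries labelled YT-AKO, a difference of 2.51 on the log2 scale. The length correction left *Slc25a39* called (log2 fold change 1.57, adjusted p = 0.0126) and *Slc25a40* not (log2 fold change -0.41, adjusted p = 0.178). *Slc25a37*, mitoferrin-1, the iron importer best known from red cell precursors, stood at 72.2, 71.2 and 53.2 CPM in the libraries labelled YT-FF and at 48.6, 41.6 and 40.5 CPM in those labelled YT-AKO. It was lower without overlap, just inside the threshold (log2 fold change -0.59, SE 0.18, adjusted p = 0.0496), and was not called by limma-voom or with the length correction (adjusted p = 0.146). Mitoferrin-2, *Slc25a28*, stood at 47.8, 44.6 and 50.03 CPM in the libraries labelled YT-FF and at 54.9, 77.9 and 57.9 CPM in those labelled YT-AKO. In CPM it lay above the controls in every library labelled YT-AKO and was not called (log2 fold change 0.42, SE 0.18, adjusted p = 0.116). In TPM the order was reversed. *Slc25a28* stood there at 49.1, 47.1 and 48.2 in YT-FF and at 40.9, 36.4 and 42.1 in YT-AKO. Over all tested genes 54.5% lay below in TPM, so its direction depended on the scaling. The B cell markers fell beside these genes, with 5 of 8 called lower, for example *Ms4a1* with a log2 fold change of -1.17 (SE 0.16, adjusted p = 0.0166), and their part in the lower values of *Slc25a37* and *Slc25a40* was not tested.

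**Figure D4:**
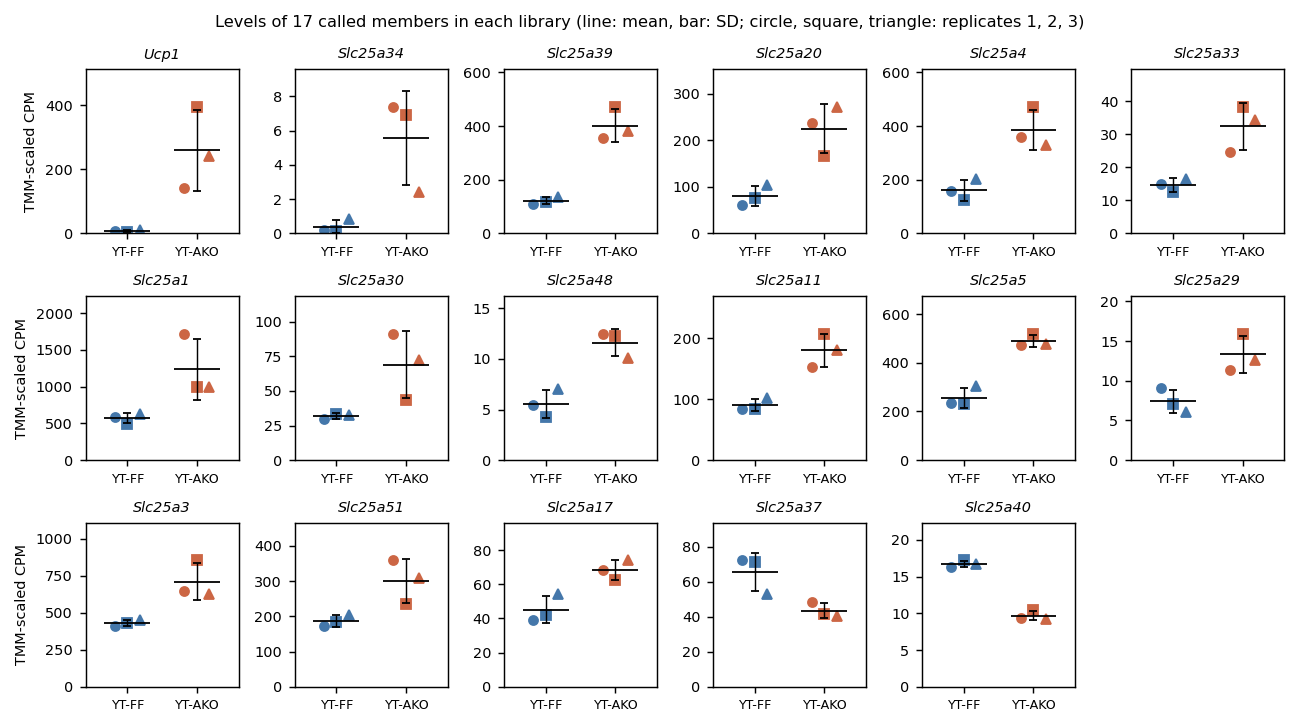
TMM-scaled CPM of 17 called members in each library, with blue for YT-FF, orange for YT-AKO, circles, squares and triangles for replicates 1, 2 and 3, a line at the group mean and a bar of 1 SD, each axis starting at 0. In every panel the groups are apart, upward in 15 and downward in *Slc25a37* and *Slc25a40*.

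Of the members placed in none of these roles, *Slc25a46*, an outer membrane protein that acts in mitochondrial fusion, had a log2 fold change of 0.28 (adjusted p = 0.215). *Slc25a53* was at 11.4 to 12.9 CPM in the controls and at 7.30 to 8.32 CPM in the libraries labelled YT-AKO, and edgeR left it just outside the threshold (log2 fold change -0.61, SE 0.19, adjusted p = 0.0521), while DESeq2 called it lower, as did edgeR without YT-AKO 2 (adjusted p = 0.0426). By edgeR *Slc25a53* was also called lower with library totals alone (adjusted p = 0.0288) and with upper-quartile normalization (adjusted p = 0.0453). *Slc25a43* had 0 to 18 counts and a log2 fold change of -0.34 with an SE of 0.94, although its neighbour *Slc25a5*, 18448 bases away on the X chromosome, was among the most abundant members. *Slc25a54* had 0 or 1 count in each library.

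Ratios of related carriers within a library do not depend on the scaling between libraries, although they can depend on a length effect that differs between libraries. With the length correction, for example, the log2 fold changes of *Slc25a33* and *Slc25a36* went from 1.14 and -0.41 to 0.81 and -0.0083. Among the 9 pairs with both genes tested, the ratio of *Slc25a39* to *Slc25a40* separated the groups with the smallest spread, an SD of 0.16 in YT-FF and 0.13 in YT-AKO on the log2 scale. *Ucp1* to *Ucp2* rose by 5.21 and *Slc25a34* to *Slc25a35* by 3.92 on that scale. *Slc25a33* to *Slc25a36* changed from 1.03, 0.769 and 1.01 to 1.84, 4.06 and 2.72, and *Slc25a37* to *Slc25a28* from 0.940, 0.993 and 0.662 to 0.552, 0.333 and 0.435. These ratios, and that of *Slc25a4* to *Slc25a5*, did not overlap between the groups, and each had an exact two-sided permutation p of 0.1, the smallest possible, or 0.15 after adjustment over the 9 pairs. The differences of 0.46 for *Slc25a12* to *Slc25a13*, 0.45 for *Ucp3* to *Ucp2* and 0.42 for *Slc25a25* to *Slc25a24* on the log2 scale were within overlapping groups (exact permutation p = 0.3, 0.2 and 0.5).

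**Figure D5:**
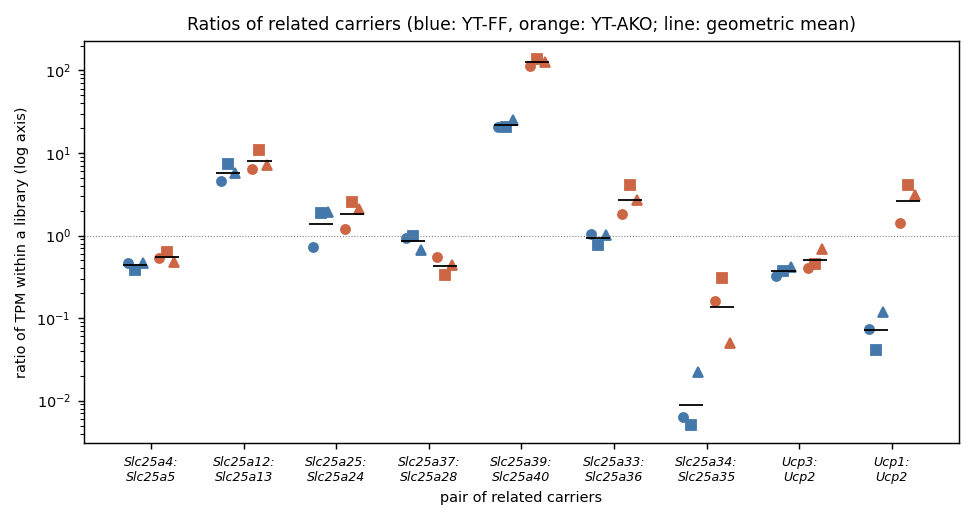
Ratio of the TPM of related carriers in each library on a log axis, for 9 pairs, with blue for YT-FF, orange for YT-AKO, circles, squares and triangles for replicates 1, 2 and 3, and a line at the geometric mean of each group. The ratio of *Slc25a39* to *Slc25a40* runs from 20.6 to 24.9 in YT-FF and from 114 to 137 in YT-AKO.

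Genes outside the family that serve the same transport were taken from lists chosen by function. Of 12 genes for carrier import and atypical carriers, 8 were higher and 0 lower, beside the 12.6% and 9.01% of all tested genes. Genes of small chaperones of the intermembrane space led this list, with log2 fold changes of 2.53 for *Timm13* (SE 0.49, adjusted p = 0.0204), 1.91 for *Timm10* and 1.85 for *Timm8b*. *Timm13* stood at 133 and 144 CPM in YT-AKO 1 and 3 and at 436 CPM in YT-AKO 2, and without YT-AKO 2 its log2 fold change was 1.75 (adjusted p = 0.00202). *Timm22*, the channel of the TIM22 complex, had 1.03 (adjusted p = 0.0249), and the carrier-like insertase *Mtch2* had 0.998, whereas the receptor *Tomm70a* had 0.26 and was not called. Of 25 pores and other transporters, 10 were higher and 0 lower by edgeR, for example *Mpc2* of the pyruvate carrier (2.16), *Smdt1* (1.79) and *Mcub* (1.53) of the calcium uniporter, *Cpt2* (1.32), which acts after *Slc25a20*, and *Letm1* (1.07), all as log2 fold changes. *Cpt1a*, which makes the acylcarnitines that *Slc25a20* imports, had -0.71 (SE 0.24, adjusted p = 0.0648) and was not called by edgeR, while DESeq2 called it lower, as did edgeR without YT-AKO 2. The pore *Vdac1* and the uniporter channel *Mcu* had 0.30 and 0.13. Of 13 enzymes that share a substrate with a carrier, 7 were higher and 0 lower, among them the brain-type creatine kinase *Ckb* (2.36) and the malate dehydrogenases *Mdh2* (1.66) and *Mdh1* (1.103), while the aspartate aminotransferases *Got1* and *Got2* had 0.28 and 0.06. Muscle markers were measured beside these genes, with 1 of 8 tested markers called, *Acta1*, and YT-AKO 1 held 6168 counts of *Ckm* against 26 to 1032 in the other libraries. The part of muscle RNA in the called carriers was not tested beyond leaving YT-AKO 1 out, after which 14 of the 16 members remained called higher. Of these 3 lists together 25 genes were higher, 14 without YT-FF 3 and 0 without YT-FF 1 or without YT-FF 2.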

How the data were processed

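RNA-seq counts of 3 YT-FF and 3 YT-AKO scWAT libraries were used, grouped by the sample labels. The authors mapped the reads with HISAT2 to mm10 and counted fragments over GENCODE vM25 exons with featureCounts 2.0.1. The deposited values are raw counts per gene, without normalization, strand or fragments of several genes. Of 55401 genes, 55141 had a symbol in the annotation used here. In R 4.3.3, the main test was the quasi-likelihood test of edgeR 4.0.16 with TMM on the 16807 genes kept by filterByExpr (10 counts by its rule and 15 in total), with p-values adjusted by the Benjamini-Hochberg method, with DESeq2 1.42.0 (the study's tool), limma 3.58.1, other scalings and filters, a length correction, a replicate block and left-out libraries as alternatives. The biological coefficient of variation was 0.288. The scripts were tested on simulated data. Single values were compared by exact permutation tests. Members, lists and tests were chosen with earlier results of these data known.

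Values in every library are given for the uncoupling proteins, the 10 called members with the largest change, the 5 most abundant members and the genes of each ratio pair, the others by role. Other genes named are those that changed most in their list and uncalled members of the same complex or step, which were chosen after their values were seen. The study's methods give 3 male mice per group for these libraries. Protein sequences were not analysed here. The values of 1 member are not reported here, and it is left out of the figures that name members, while the counts over members include it.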

Additional observations from a re-analysis of the deposited data

How the results depend on the processing

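Every one of the 18 called members kept its direction under every alternative in which it was tested (*Slc25a34* did not pass the filter of at least 10 counts in every library), and with DESeq2 size factors in edgeR and with robust estimation no call changed. The members called higher, 16 in the main test, were 8 with library totals alone, and between 0 and 19 when 1 library was left out (0 without YT-FF 1 or YT-FF 2). The members called lower, 2 in the main test, were 1 with limma-voom, 1 with no filter, 0 with the length correction, and 0 to 3 with 1 library left out. With library totals alone and with upper-quartile normalization, *Slc25a37*, *Slc25a40* and *Slc25a53* were called lower. Over all genes the lower calls were 1515 in the main test, 1647 with limma-voom, 1759 of 30027 with no filter and 763 with the length correction. At the stricter criterion 1 member was higher, and 9 with DESeq2, 2 with limma-voom, 8 with no filter, 2 with at least 10 counts in every library, and 0 to 8 with 1 library left out, 8 of them without YT-AKO 2. Over all genes the same criterion gave 15 higher of 16807 in the main test and 1339 of 18938 with DESeq2. It gave 22 of 16807 with limma-voom, 1217 of 30027 with no filter and 18 of 14487 with at least 10 counts in every library. Carrier genes outside the family gave 25 higher, and 0 to 31 with 1 library left out, and 0 lower, but 1 with DESeq2, with library totals alone and with no filter, and 0 to 1 with 1 library left out. The cause was not tested.

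Deviations of same-numbered libraries correlated at 0.14, -0.13 and -0.09, so the numbers were not taken to pair the libraries, and YT-FF 2 and YT-FF 3 did not correlate best with the library of their own number. With the replicate block, 1 member was higher, 0 lower, and 0 at the stricter criterion, and 0 carrier genes outside the family were higher. With the length correction and the replicate block, the counts were 3, 0, 0 and 1. Over all 16807 tested genes the block left 24 higher, 9 lower and 0 at the stricter criterion. With the length correction as well, 59, 22 and 0 of all genes were left. *Yap1* had -0.98 (adjusted p = 0.0584) with the replicate block and -0.57 (adjusted p = 0.106) with the length correction and the block, and *Wwtr1* had 0.89 (adjusted p = 0.0618) and 1.02 (adjusted p = 0.0582). *Wwtr1* had 0.59 (adjusted p = 0.0796) with library totals alone, and both genes lost their calls without YT-FF 1 or YT-FF 2. With 1 library left out, *Yap1* ran from -1.08 to -0.90 and *Wwtr1* from 0.81 to 1.03.

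Members that changed sign were not called under the settings that turned them. *Slc25a23* had a log2 fold change of -0.0044 with DESeq2, -0.068 with limma-voom, -0.034 with upper-quartile normalization, -0.28 with library totals alone, -0.025 with at least 10 counts in every library, -0.066 with the replicate block, and -0.29 to 0.26 with 1 library left out. *Slc25a25* had 0.016 with limma-voom, 0.011 with the replicate block, 0.28 with the length correction, 0.35 with the length correction and block, and -0.42 to 0.16 with 1 library left out. *Slc25a12* had 0.15 with the length correction, 0.12 with the length correction and block, and -0.38 to 0.035 with 1 library left out. With library totals alone *Ucp2* had -0.27, *Slc25a22* -0.098, *Slc25a32* -0.19, *Slc25a35* -0.0077, *Slc25a38* -0.14, *Slc25a44* -0.22 and *Slc25a46* -0.048. With 1 library left out, *Ucp2* ran from -0.0011 to 0.17, *Slc25a44* from -0.043 to 0.26, *Slc25a32* from -0.15 to 0.26, *Slc25a43* from -1.43 to 0.26, *Slc25a16* from -0.28 to 0.047, and the log2 ratio of *Slc25a25* to *Slc25a24* from -0.043 (without YT-FF 1) to 0.73. A member at 3 fragments or fewer in a library, 0.128 to 0.177 TMM-scaled CPM, could not be told from 0 at this depth, counting error only.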
